A study of Mus musculus with 8 samples.

Results

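The 10 genes described here encode urocortin 3 (Ucn3) and 9 receptors through which hormones, nerves and nutrients act on the pancreatic islet. They were chosen by name, as the rows Ucn3, Glp1r, Gipr, Gcgr, Ffar1, Adra2a, Chrm3, Sstr2, Sstr3 and Galr1 of the count table, and they make up 10 of its 19945 genes. All 10 were measured, from 242 UMIs (unique molecular identifiers, each one counted transcript) of Sstr2 to 21026 UMIs of Glp1r over all cells. Islets were taken from adult wild-type mice 10 days after the last dose of the focal adhesion kinase inhibitor FAKi (PF562271, 50 mg/kg by oral gavage, 2 doses a day for 3 weeks) or of its vehicle. The study's methods give 6 to 12 weeks as the starting age of its mice, and the strain of the sequenced mice was not given in the sources used here. Islets of 5 mice per group were pooled and handpicked, and each pool gave 1 droplet-based 3′ library, read on 4 sequencing lanes. With 1 library a group there is no replicate, so no value below carries a test between FAKi and vehicle, and differences between mice cannot be told apart from the treatment. Intervals are exact 95% intervals for counting error only and say nothing of variation between mice, being Poisson for levels, conditional binomial for ratios and Clopper-Pearson for shares.

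Islet cells talk to each other over short distances. Insulin comes from β-cells, glucagon from α-cells, somatostatin from δ-cells and pancreatic polypeptide from PP cells. Mouse β-cells also release urocortin 3, a peptide of the corticotropin-releasing family that acts on the receptor Crhr2 of δ-cells and so raises the release of somatostatin. Receptors coupled to the stimulatory G protein (Glp1r, Gipr and Gcgr, for GLP-1, GIP and glucagon) raise cyclic AMP and amplify insulin release, as do Ffar1, which senses long-chain fatty acids, and Chrm3, the muscarinic receptor for acetylcholine of parasympathetic nerves, through the Gq protein. Adra2a for adrenaline and noradrenaline, Galr1 for galanin, and Sstr2 and Sstr3 for somatostatin couple to inhibitory G proteins and restrain secretion.

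The table held 3776 cells of the vehicle library and 3183 cells of the FAKi library, in 12 annotated classes and 17 clusters, with 59514118 and 57836783 UMIs and medians of 10101.5 and 13688 UMIs a cell. The libraries shared 4 cell barcodes. Of the annotated islet cells, β-cells numbered 1076 and 1336 (vehicle and FAKi, the order used throughout), α-cells 273 and 434, and δ-cells 328 and 358, with median depths of 30792.5 and 30427.5, 13126 and 13262.5, and 12670.5 and 13782 UMIs. The hormones did not all follow these labels. The δ class joined cluster 6, in which Sst (somatostatin) had the most UMIs of the hormones in 186 of 188 and 195 of 195 cells, with cluster 8, in which Ppy (pancreatic polypeptide) reached 278292.3 and 263887.7 CPM (UMIs of a gene scaled to a fixed total of UMIs in each group of cells) and led in 73 of 140 and 99 of 163 cells. The α class joined cluster 5, led by Gcg (glucagon) in 168 of 186 and 258 of 266 cells, with cluster 9, in which Sst led in 31 of 87 and 48 of 168 cells. Values for the classes are therefore given with those of some or all of clusters 0, 5, 6 and 8. These are the largest β cluster and the Gcg-, Sst- and Ppy-led clusters. Ins2, an insulin gene, was at 9.30% and 13.7% of its β-cell level in endothelial cells, which do not make insulin, but at 0.728% and 0.988% in α-cells, 0.429% and 0.577% in cluster 5 and 0.513% and 0.767% in cluster 6. Endothelial cells thus held more Ins2 than these cells did, and a level at or under the endothelial one does not show that a gene is absent.

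In the vehicle library 8 of the 10 genes were at least 2-fold higher in β-cells than in α-cells, and 1, Sstr2, was at least 2-fold lower, where 5.95% and 26.6% of the 12832 genes with at least 20 UMIs were past the same limits. Against δ-cells 7 of the 9 genes with enough UMIs were at least 2-fold higher in β-cells and 0 were lower, where 5.08% and 28% of 12960 genes were. Between the non-β classes the genes divided, with Ffar1 and Sstr2 at least 2-fold higher in α-cells and Ucn3, Glp1r, Adra2a and Chrm3 at least 2-fold lower, where 3.89% and 7.15% of 11493 genes were. The median log2 ratio of the 10 genes was 2.49 for β over α and that of all genes −0.59. For β over δ the medians were 2.76 over the 9 genes and −0.63 over all genes. For α over δ they were 0.05 and −0.04. The scale moves these background medians, since hormone transcripts fill much of a β-cell library. Without the 20 most abundant genes the median of all genes was 0.12 for β over α and 0.01 for β over δ, and in UMIs per cell it was 0.57 and 0.49. The counts of all genes past the 2-fold limit for β over α, 763 higher and 3410 lower in CPM, became 1712 and 1214 without those 20 genes and 3385 and 779 in UMIs per cell. For β over δ, 658 and 3627 became 1260 and 1530, and 2674 and 975. Of the 10 genes, 8 to 9 were higher for β over α and 7 to 9 for β over δ on these scales. In the FAKi library 8 genes were higher and 1 lower for β over α, where 5.07% and 31.5% of 13047 genes were. For β over δ 7 were higher and 0 lower, where 4.71% and 27.6% of 13060 genes were, and for α over δ 2 were higher and 3 lower, where 6.56% and 6.61% of 12016 genes were.

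**Figure D1:**
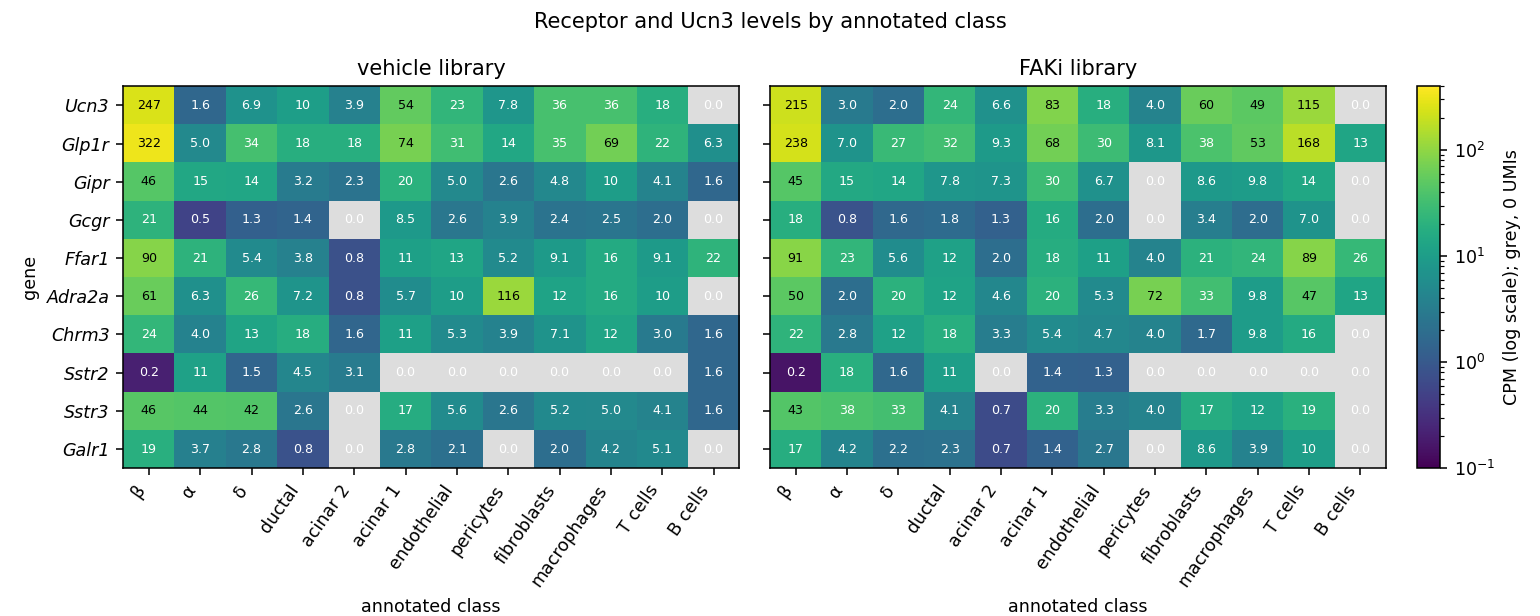
Level of each of the 10 genes (rows, CPM by colour and number) in the 12 annotated classes of the vehicle and FAKi libraries (columns). Ucn3 and Glp1r stand at 247 and 322 CPM in vehicle β-cells, Sstr2 is at 11.3 CPM in α-cells and 0.210 CPM in β-cells, and Sstr3 lies between 42.4 and 45.7 CPM in all 3 vehicle islet classes.

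Ucn3 (chr13:3940688-3945349, minus strand, GRCm38) is shown with the 250 bases upstream of its RefSeq start, because in both libraries it had the largest β-cell ratio of the 10 genes against α-cells and against δ-cells. The bases are from RefSeq (GRCm38.p6, chr13:3945350-3945599), read 5′ to 3′ on the minus strand, and the capitals mark the E-box CAGATG at −87 to −82 from the start.
Ucn3 promoter: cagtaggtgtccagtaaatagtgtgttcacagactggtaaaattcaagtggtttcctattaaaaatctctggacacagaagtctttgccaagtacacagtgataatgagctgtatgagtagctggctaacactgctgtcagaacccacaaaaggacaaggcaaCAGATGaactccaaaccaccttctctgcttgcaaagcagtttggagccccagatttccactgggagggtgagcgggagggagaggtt
An E-box of this kind (CATCTG or its reverse complement CAGATG, searched on both strands) lies in 14.4% of the 32851 RefSeq mouse promoters in a window of the same 250 bases, so the match is a description and not a site known to be used. Of the other motifs searched on both strands, the homeodomain core TAATTA lies in 4.84% of these windows. The MARE half-site TGCTGA lies in 16.1%, the cyclic AMP response half-site TGACG in 17.8% and the TATA box TATAAA in 12.4%, and the Ucn3 window holds none of them.

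Ucn3 was a β-cell transcript. In vehicle β-cells 8212 UMIs gave 247 CPM (241 to 252), and 8260 UMIs gave 215 CPM in FAKi β-cells. In α-cells it was at 1.58 CPM (6 UMIs) and 3.0 CPM (18 UMIs). In δ-cells it was at 6.86 CPM (32 UMIs) and 1.99 CPM (11 UMIs). The β level was thus 156-fold (71.6 to 425) above that of α-cells and 36.0-fold (25.5 to 52.7) above that of δ-cells in the vehicle library. At a common depth of 5000 UMIs a cell, 65.9% and 65.4% of β-cells held a Ucn3 UMI, and 0.794% of α-cells and 1.44% of δ-cells of the vehicle library did. Endothelial cells, with more Ins2, gave 3.16% and 2.5% at that depth, so these α and δ shares are not read as expression. The 32 vehicle δ UMIs came from 11 cells, 10 of them from 1 cell, and 21 of the 29 UMIs in cluster 8 were in its 20 cells led by Ins2, where Ucn3 was at 126.5 CPM. Outside cluster 8 the δ class had 3 and 5 UMIs.

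The receptor for urocortin 3 lay in the Sst-led cells. Crhr2 had 18 and 39 UMIs in cluster 6 (7.81 and 15.0 CPM), 0 in clusters 0, 5 and 8 of the vehicle library, and 1, 0 and 1 in those clusters of the FAKi library. A count of 0 leaves room for up to 0.132 CPM in cluster 0, 1.03 CPM in cluster 5 and 1.27 CPM in cluster 8, taking 3 counts as the floor. The level in cluster 6 was 1.92-fold (1.07 to 3.57) higher in the FAKi library. The related receptor Crhr1 showed the other arrangement, with 49 and 52 UMIs in cluster 0 and 0 UMIs in clusters 5, 6 and 8 of both libraries. Ucn3 and Crhr2 thus lay mainly in different clusters in both libraries.

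Glp1r (chr17:30901817-30940791, plus strand) is the receptor for the incretin GLP-1 and the target of the GLP-1 drugs. Its upstream bases are shown because its FAKi value is taken up below. They run from chr17:30901617 to chr17:30901816 on the plus strand (200 bases, RefSeq sequence of GRCm38.p6). None of the 5 motifs was in the 250 bases searched, of which 73.2% were G or C, against a median of 52.4% over all promoters, so the sequence has no capitals.
Glp1r promoter: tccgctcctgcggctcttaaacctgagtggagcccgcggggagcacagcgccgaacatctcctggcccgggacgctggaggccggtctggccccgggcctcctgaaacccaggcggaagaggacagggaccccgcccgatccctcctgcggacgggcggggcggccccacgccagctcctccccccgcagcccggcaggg
Glp1r was at 322 CPM (316 to 328, 10718 UMIs) and 238 CPM (9117 UMIs) in β-cells. In α-cells it was at 5.01 CPM (19 UMIs) and 6.99 CPM (42 UMIs), and in δ-cells at 34.3 CPM (160 UMIs) and 27.3 CPM (151 UMIs). The β level was 64.3-fold (41.1 to 107) above the α level and 9.40-fold (8.04 to 11.1) above the δ level in the vehicle library. The δ signal came from the Sst-led cells. Cluster 6 held 60.7 and 52.7 CPM and cluster 8 held 8.47 and 4.76 CPM, a ratio of 7.18 (4.47 to 12.1) and 11.1. Of the 20 and 14 UMIs in cluster 8, 13 and 6 were in its cells led by Ins2. Its cells led by Ppy were at 3.29 and 2.03 CPM. In the Gcg-led cluster 5 the count fell to 2 and 15 UMIs, or 0.688 and 3.44 CPM. At 5000 UMIs a cell 82.1% and 69.0% of cluster 0 cells, 24.02% and 18.8% of cluster 6 cells and 0.552% and 2.64% of cluster 5 cells held a Glp1r UMI, beside 1.89% and 5% of endothelial cells. Endothelial cells as a whole held 31.5 and 29.9 CPM, from 21 and 10 cells. The order of cluster 0, then cluster 6, then cluster 5 held in both libraries. Loci on the opposite strand overlap Glp1r, Gcgr, Chrm3 and Sstr2, other loci on the same strand overlap Chrm3, and whether counting used the strand was not given in the sources used here.

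Gipr (chr7:19156061-19166127, minus strand), the receptor for the incretin GIP, was the most evenly spread of the 3 receptors that raise cyclic AMP. In β-cells it was at 45.6 and 45.3 CPM, in α-cells at 14.5 and 15.1 CPM and in δ-cells at 13.5 CPM in both libraries. The β level was 3.14-fold (2.40 to 4.19) above the α level and 3.38-fold (2.63 to 4.42) above the δ level. The α and δ levels did not differ beyond counting error, at a ratio of 1.08 (0.735 to 1.57). Unlike Glp1r, it was present in Gcg-led cells, with 14.1 and 14.2 CPM in cluster 5, and its gap between clusters 6 and 8 was within counting error, at 1.56-fold (0.916 to 2.69) and 1.37-fold (0.846 to 2.22). By leading hormone the vehicle levels did separate, at 18.6 CPM (13.8 to 24.6) in Sst-led and 8.14 CPM (4.97 to 12.6) in Ppy-led cells, and the FAKi levels, at 14.7 and 11.1 CPM, did not. At 5000 UMIs a cell 7.94% and 8.10% of α-cells held a Gipr UMI, against 2.52% and 1.67% of endothelial cells.

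Gcgr (chr11:120530699-120538986, plus strand), the glucagon receptor, was highest in β-cells among islet cells, with few UMIs in the others. It was at 21.4 CPM (713 UMIs) and 18.1 CPM (696 UMIs) in β-cells. In α-cells, the source of glucagon, it had 2 and 5 UMIs (0.528 and 0.832 CPM), and in δ-cells 6 and 9 UMIs (1.29 and 1.63 CPM). Of the δ UMIs, 5 and 8 were in the Sst-led cluster 6 (2.17 and 3.08 CPM) and 1 and 1 in cluster 8. Cells led by Sst held 7 and 12 UMIs (2.66 and 3.93 CPM), beside 22.8 and 18.2 CPM in cluster 0. Against α-cells the β level was 40.6-fold higher, with a wide interval (11.2 to 336), and against δ-cells 16.7-fold higher (7.62 to 45.6). Endothelial cells, with more Ins2 than the α-cells or cluster 6, had 10 and 3 UMIs (2.64 and 2.0 CPM). In cluster 5 the count was 0 and 1 UMI, which leaves room for up to 1.03 CPM in the vehicle library with 3 counts as the floor.

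Ffar1 (chr7:30857390-30861564, minus strand), the long-chain fatty acid receptor, was a gene of β- and α-cells. It was at 89.9 and 91.2 CPM in β-cells, at 21.1 and 23.3 CPM in α-cells and at 5.36 and 5.6 CPM in δ-cells. Both steps of this order were past counting error, with 4.26-fold (3.41 to 5.39) from α to β and 3.94-fold (2.49 to 6.45) from δ to α. The residual δ signal lay in the Ppy-led cluster 8, at 9.31 and 10.2 CPM, while the Sst-led cluster 6 had 3 and 1 UMIs (1.30 and 0.385 CPM). Cluster 6 over cluster 8 was 0.14 and 0.0378. Of the 22 and 30 UMIs in cluster 8, 7 and 2 were in its cells led by Ins2, and its cells led by Ppy were at 6.04 and 11.4 CPM. At 5000 UMIs a cell 0 of 179 and 0 of 192 cells of cluster 6 held an Ffar1 UMI, with 95% upper limits of 2.04% and 1.90%, against 11.05% and 10.9% in cluster 5. Endothelial cells were at 1.89% and 2.5%.

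**Figure D2:**
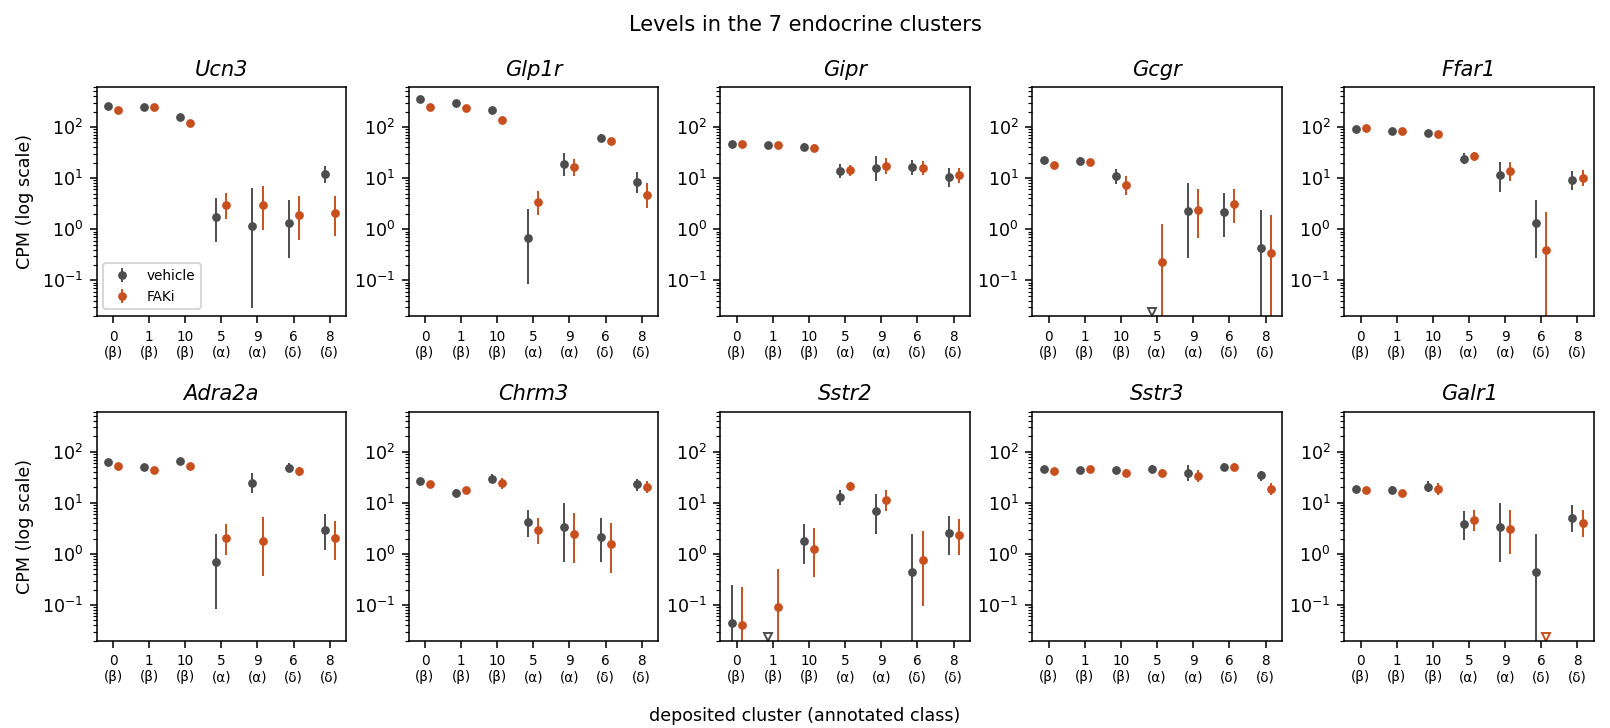
Level of each gene (CPM, log axis, points with 95% Poisson intervals for counting error) in the 7 endocrine clusters of each library, with open triangles on the lower edge for clusters with 0 UMIs. Cluster 6, led by Sst, and cluster 8, led by Ppy, carry the same class label but differ in Adra2a (49.0 against 2.96 CPM, vehicle) and Chrm3 (2.17 against 22.9 CPM).

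Adra2a and Chrm3 showed opposite patterns inside the δ class. Adra2a (chr19:54044151-54048982, plus strand), the α2A-adrenergic receptor of sympathetic signals, was at 60.8 and 49.7 CPM in β-cells and at 25.7 and 20.4 CPM in δ-cells, 2.37-fold apart (1.97 to 2.87) in the vehicle library. That gap shrank to 1.30-fold between clusters 0 and 6 and to 1.18-fold between cells led by Ins2 and by Sst, and was 1.76-fold as a mean over cells. The Sst-led cluster 6 was at 49.0 and 41.2 CPM, close to the 63.8 and 52.2 CPM of cluster 0, and the Ppy-led cluster 8 was at 2.96 and 2.04 CPM. In α-cells it was at 6.33 CPM (24 UMIs) and 2.0 CPM (12 UMIs), and in cluster 5 alone at 0.688 CPM (2 UMIs) and 2.06 CPM (9 UMIs). Of the 24 vehicle α UMIs, 19 were in the 31 cells of cluster 9 led by Sst. Adra2a was thus a gene of Ins2- and Sst-led cells, and the Gcg-led cells of cluster 5 held it at 5000 UMIs in 0 of 181 cells, with a 95% upper limit of 2.02%, and in 0.377% of cells.

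Chrm3 (chr13:9875486-10360847, minus strand), the M3 muscarinic receptor, was at 24.4 and 21.9 CPM in β-cells, 3.96 and 2.83 CPM in α-cells and 12.6 and 11.6 CPM in δ-cells. Its δ signal was almost all from the Ppy-led cluster, with 54 of 59 and 60 of 64 UMIs in cluster 8. That cluster reached 22.9 and 20.4 CPM, near the β level, and its cells led by Ppy were at 25.8 and 23.2 CPM. In the Sst-led cluster 6, 5 and 4 UMIs were counted (2.17 and 1.54 CPM). The vehicle β over δ ratio was 1.93 (1.48 to 2.56) and rose to 12.1 between clusters 0 and 6. Adra2a was thus high in Ins2- and Sst-led cells, and Chrm3 in Ins2- and Ppy-led cells. Other receptors of the same transmitters lay elsewhere. Chrm2, a muscarinic receptor, had 16 and 14 UMIs in cluster 6 and 0 in cluster 0 of both libraries. The adrenergic receptors Adrb1 and Adra1a had 18 and 24, and 12 and 18, UMIs in the Gcg-led cluster 5 and 0 in cluster 0.

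Galr1, the receptor for galanin, a peptide of islet nerves, was at 18.9 CPM (628 UMIs) and 17.3 CPM (665 UMIs) in β-cells. In α-cells it was at 3.69 CPM (14 UMIs) and 4.16 CPM (25 UMIs), and in δ-cells at 2.79 CPM (13 UMIs) and 2.17 CPM (12 UMIs). The β level was 5.11-fold (3.02 to 9.40) above the α level and 6.78-fold (3.93 to 12.8) above the δ level. The α and δ levels did not separate, at a ratio of 1.33 (0.578 to 3.06). Within the δ class all but 1 of the vehicle UMIs were in cluster 8 (12 of 13, 5.08 CPM), and all 12 were there in the FAKi library.

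Sstr2 (chr11:113619342-113626028, plus strand) was the one receptor of the 10 with its highest islet level in α-cells. The 250 bases upstream of its RefSeq start (chr11:113619077-113619326, plus strand, RefSeq sequence of GRCm38.p6) are shown for contrast with the β-cell genes above. The capitals mark 2 overlapping copies of the cyclic AMP response half-site TGACG, one on each strand, at −58 to −54 and −55 to −51.
Sstr2 promoter: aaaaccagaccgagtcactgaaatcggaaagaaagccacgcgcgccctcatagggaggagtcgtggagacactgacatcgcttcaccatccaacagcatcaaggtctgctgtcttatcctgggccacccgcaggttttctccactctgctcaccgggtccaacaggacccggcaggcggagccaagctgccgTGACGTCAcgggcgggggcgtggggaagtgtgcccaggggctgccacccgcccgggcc
At least 1 such half-site lies in 17.8% of promoter windows of this length, and it was also found upstream of Adra2a and of 1 of the 2 RefSeq starts of Sstr3. How often 2 copies overlap as they do here was not counted, so that share does not describe the whole marked stretch. The match says nothing of whether the site is bound. Sstr2 was at 11.3 CPM (43 UMIs) and 18.5 CPM (111 UMIs) in α-cells. In β-cells it had 7 and 6 UMIs (0.210 and 0.156 CPM), and in δ-cells 7 and 9 UMIs (1.5 and 1.63 CPM), beside 0 and 2 UMIs (0 and 1.33 CPM) in endothelial cells. The vehicle β level was 0.0185 times (0.00704 to 0.0416) the α level, and the α level was 7.56-fold (3.37 to 19.9) above the δ level. Of all Sstr2 UMIs, α-cells held 47.8% and 73.0% and β-cells 7.78% and 3.95%, although β-cells held 55.9% and 66.4% of the UMIs of all genes. Within β-cells 6 of the 7 vehicle UMIs and 4 of the 6 FAKi UMIs were in cluster 10, the β cluster with the most Gcg (10276.2 and 11956.2 CPM). Cluster 5 reached 12.7 CPM (37 UMIs) and 21.1 CPM (92 UMIs).

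Sstr3 (chr15:78537008-78544685, minus strand), the other somatostatin receptor of the set, was spread over all islet cells. It was at 45.7 and 43.0 CPM in β-cells, 44.1 and 37.6 CPM in α-cells and 42.4 and 33.2 CPM in δ-cells. In the vehicle library β over α was 1.04 (0.883 to 1.22) on the CPM scale, but 1.69 without the 20 most abundant genes and 2.31 in UMIs per cell. The β over δ ratio was 1.08 (0.928 to 1.26) in CPM and 1.69 and 2.34 on those other scales. In the FAKi library β over α was 1.15 (0.996 to 1.32) and β over δ 1.30 (1.11 to 1.52), the latter beyond counting error. In CPM its levels thus did not separate the classes in the vehicle library, and were higher in β- than in δ-cells in the FAKi library. At 5000 UMIs a cell 20.1%, 19.8% and 19.5% of vehicle β-, α- and δ-cells held an Sstr3 UMI, beside 0.946% of endothelial cells. The Sst-led cells themselves carried it, at 50.8 and 49.7 CPM in cluster 6, and the Ppy-led cluster 8 less, at 34.3 and 18.7 CPM.

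The β-cells were deposited as clusters 0, 1 and 10, with 650 and 675, 305 and 546, and 121 and 115 cells. Cluster 10 carried other hormones beside Ins2 and had lower levels of 4 of the 10 genes. The share of all genes lower there, or in cluster 1, is not given here, so these lists are a description only. Vehicle Ucn3 was at 156 CPM there and at 259.5 CPM in cluster 0, so that cluster 10 stood at 0.601 of cluster 0, and at 0.567 with FAKi. Glp1r stood at 0.636 and 0.562 of its cluster 0 level. Gcgr stood at 0.475 and 0.4, and Ffar1, with the smallest gap, at 0.817 and 0.780. In contrast, Adra2a (1.02 and 1.01), Chrm3 (1.14 and 1.02) and Galr1 (1.11 and 1.07) did not differ between clusters 10 and 0 beyond counting error. Sstr2 went the other way, with 6 and 4 UMIs in cluster 10 (1.76 and 1.27 CPM) and 1 and 1 in cluster 0. In the vehicle library cluster 10 had Gcg at 10276.2, Sst at 7015 and Ppy at 15095.8 CPM, where cluster 0 had 88.8, 33.9 and 57.5 CPM. Their part in the lower levels of those genes was not tested. Cluster 1 was lower than cluster 0 in Chrm3 (0.602 and 0.756), Adra2a (0.781 and 0.830) and, by less, Glp1r (0.837 and 0.945) and Ffar1 (0.912, 0.832 to 0.998, and 0.890, 0.824 to 0.961). Ucn3 was higher in cluster 1 than in cluster 0 of the FAKi library, at 1.18 (1.13 to 1.24), and at 0.963 (0.913 to 1.02) in the vehicle library.

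The comparison of FAKi with vehicle asks whether the signals that islet cells can receive differed after the inhibitor. In β-cells 0 of the 9 genes with enough UMIs were at least 1.5-fold higher and 0 were at least 1.5-fold lower in the FAKi library, where 3.31% and 6.58% of 13388 genes were. In α-cells 2 of 9 were higher (Ucn3 and Sstr2) and 1 was lower (Adra2a), where 7.23% and 4.94% of 11570 genes were. In δ-cells 0 of 8 were higher and 1, Ucn3, was lower, where 4.08% and 6.85% of 11786 genes were. The median log2 ratio of the genes was −0.15 in β-cells, 0.14 in α-cells and −0.33 in δ-cells, and that of all genes −0.05, 0.03 and −0.05. On the scale of UMIs per cell the median of all genes was −0.16 in β-cells and 0.07 in δ-cells, with 338 genes higher and 1234 lower in β-cells (443 and 881 in CPM) and 704 higher and 522 lower in δ-cells (481 and 807 in CPM). The counts of the 10 genes past the limit were the same on that scale.

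Within the 1.5-fold limit, Glp1r had the lowest ratio of the 9 genes in β-cells. Its level went from 322 to 238 CPM, a ratio of 0.738 (0.717 to 0.759), and 139 of the 5010 genes with at least 1000 UMIs in β-cells (2.77%) had a ratio as low or lower. The share of β-cells with a Glp1r UMI at 5000 UMIs went from 77.8% to 66.7%. The lower level was seen in each β cluster, at 0.721 in cluster 0 (347 to 250.5 CPM), 0.814 in cluster 1 (291 to 237 CPM) and 0.637 in cluster 10 (221 to 141 CPM). Of the 7 β-cell markers 5 were also lower in the FAKi β-cells, among them Mafa, a transcription factor of mature β-cells (700.3 to 566 CPM), and G6pc2 (574.5 to 381 CPM), while Ins2 was 394856.7 and 404454.3 CPM. Their part in the lower Glp1r was not tested.

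The other β-cell ratios were closer to 1. Adra2a was at 0.817 (0.767 to 0.870), with 7.90% of those 5010 genes as low or lower, and Gcgr was at 0.847 (0.761 to 0.941). Ucn3 was at 0.872 (0.846 to 0.899), with 16.7% of genes as low or lower, and its ratio varied between β clusters, from 0.817 in cluster 0 and 0.770 in cluster 10 to 1.00 in cluster 1 (249.8 and 250.2 CPM). Gipr (0.994, 0.927 to 1.07) and Ffar1 (1.01, 0.966 to 1.07) did not move beyond counting error, nor did Sstr3 (0.943, 0.879 to 1.01) and Galr1 (0.918, 0.822 to 1.03). Chrm3 was at 0.90 (0.817 to 0.993). Sstr2 had too few UMIs in β-cells for a ratio.

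**Figure D3:**
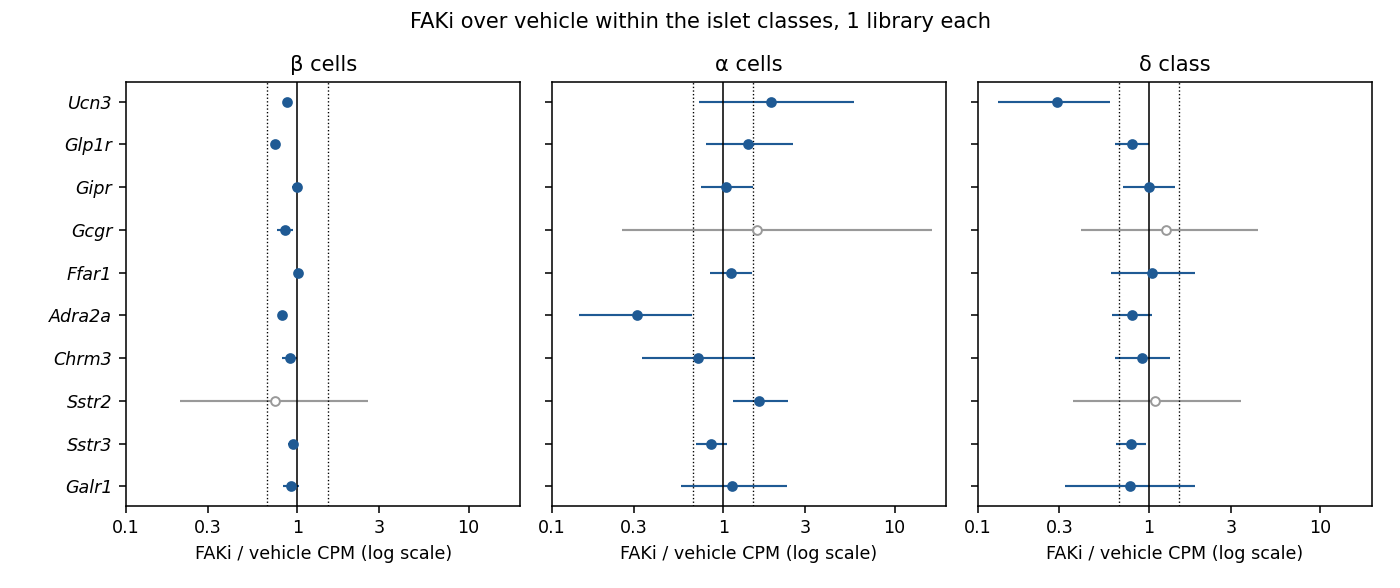
Ratio of FAKi to vehicle CPM (log axis) for each gene in β-, α- and δ-cells, with 95% intervals for counting error, dotted lines at the 1.5-fold limits and open grey points for pairs with under 20 UMIs. Glp1r in β-cells lies at 0.738, Sstr2 in α-cells at 1.63 and Ucn3 in δ-cells at 0.290.

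Sstr2 was 1.63-fold (1.14 to 2.37) higher in FAKi α-cells, 11.3 against 18.5 CPM. The ratio was of like size in cluster 5 alone, at 1.66 (1.12 to 2.5), and 1.49 in cells led by Gcg, 1.47 as a mean over cells and 1.35 in cells under 5% mitochondrial counts, so that the 1.5-fold limit was passed under some settings only. In the α class Ppy went from 45503.2 to 16442.5 CPM, and the 4 δ-cell markers summed to 15189.5 and 14139.5 CPM, with 3 of 4 lower in FAKi. The 4 acinar markers summed to 3266 and 4168 CPM and the 4 endothelial markers to 1.32 and 16.8 CPM, all higher in FAKi. Their part in the Sstr2 difference was not tested. The Ucn3 ratio in α-cells, 1.89 (0.720 to 5.82), rested on 6 and 18 UMIs, beside Ins2 at 2874 and 3996 CPM in the same cells. Adra2a in α-cells was at 0.315 (0.144 to 0.656), and the whole of that difference lay in cluster 9, which had 22 and 3 UMIs, against 2 and 9 in cluster 5. The Sst-led cells of cluster 9 had 19 UMIs in 31 vehicle cells and 3 UMIs in 48 FAKi cells.

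In δ-cells Ucn3 was at 0.290 (0.132 to 0.590) on 32 and 11 UMIs. The Sst-led cluster 6 had 3 and 5 UMIs, and the difference lay in cluster 8 (29 and 6 UMIs), where 20 vehicle and 10 FAKi cells were led by Ins2. The 7 β-cell markers summed to 22010.8 and 19333.9 CPM in the δ class, with 6 of 7 lower in FAKi and none at 0, and Ins2 itself went from 8020 to 4999 CPM. That fall lay in cluster 8, where the markers summed to 22055.0 and 11979.5 CPM. In cluster 6 they summed to 21965.6 and 27663.6 CPM, with 5 of 7 higher in FAKi, and Ins2 went from 2024 to 3101 CPM. Most of the cluster 6 sum was the marker Iapp, at 19135.2 and 23402.6 CPM. In cluster 8 Iapp was at 2978 and 3185 CPM and Ins2 at 13870.0 and 6675 CPM, so the sums of these clusters are not alike in make-up. The other δ-cell ratios were inside the limit, with Glp1r at 0.795 and Adra2a at 0.794, and cluster 6 alone gave 0.868 (0.681 to 1.11) and 0.840 (0.639 to 1.1). Sstr3 was at 0.783 in the class, 0.978 in cluster 6 and 0.545 in cluster 8.

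Outside the islet classes the levels of the 10 genes were compared with that of Ins2. For each of 18 groups of non-islet class and library, the level of a gene as a percent of its β-cell level was set beside the same percent of Ins2, since RNA from 1 source keeps its genes in 1 ratio. For Sstr3 and Galr1 the interval held that ratio in 18 of 18 groups, for Gcgr in 16, and for Ucn3, Gipr and Ffar1 in 14. It did so for Glp1r and Chrm3 in 12 and for Adra2a in 10, with Adra2a above the ratio in 8 groups and Chrm3 in 6. A group with few UMIs has a wide interval that holds the ratio readily, and Sstr2, at 0 UMIs in most of these groups, is not counted. In vehicle endothelial cells Ucn3 was at 9.43% of its β level and Ins2 at 9.30%, while in FAKi endothelial cells Ucn3, at 8.35%, was below Ins2, at 13.7%. The annotated T cells of the FAKi library, 28 cells, had Ins2 at 72.6% of the β level, Glp1r at 70.5%, Ucn3 at 53.5% and Gipr at 30.8%, the last pair below the Ins2 ratio. In the vehicle library the T cells had Ins2 at 13.2% and Glp1r at 6.93%.

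Adra2a in pericytes and Chrm3 in ductal cells stood above that ratio in both libraries. Adra2a was at 116 CPM (89 UMIs in 40 of 137 cells) and 72.5 CPM (18 UMIs in 13 of 64 cells) in pericytes, the contractile cells around capillaries, or 191% and 146% of the β level where Ins2 was at 3.39% and 5.27%. At 5000 UMIs a cell 33.3% of 60 and 23.1% of 13 pericytes held an Adra2a UMI. Chrm3 was at 17.8 CPM (111 UMIs) and 18.4 CPM (40 UMIs) in ductal cells, 72.9% and 83.9% of the β level where Ins2 was at 4.17% and 9.07%. Per Ins2 this was 17.5-fold and 9.25-fold above β-cells. In the FAKi acinar class labelled 2 Chrm3 was 9.59-fold above, on 5 UMIs. Adra2a was also above the Ins2 ratio in ductal cells (2.84-fold and 2.76-fold) and in fibroblasts (1.77-fold and 2.92-fold). Sstr2 was also found in ductal cells, at 4.48 CPM (28 UMIs) and 10.6 CPM (23 UMIs), and Ffar1 in B cells, at 22.1 CPM (14 UMIs) and 26.1 CPM (2 UMIs), or 28.8-fold (15.7 to 48.4) and 17.9-fold (2.17 to 64.8) above the Ins2 ratio. Glp1r was above the Ins2 ratio in ductal cells (1.37-fold and 1.495-fold) and in the acinar class labelled 2 (4.75-fold on 23 UMIs and 2.48-fold on 14 UMIs).

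**Figure D4:**
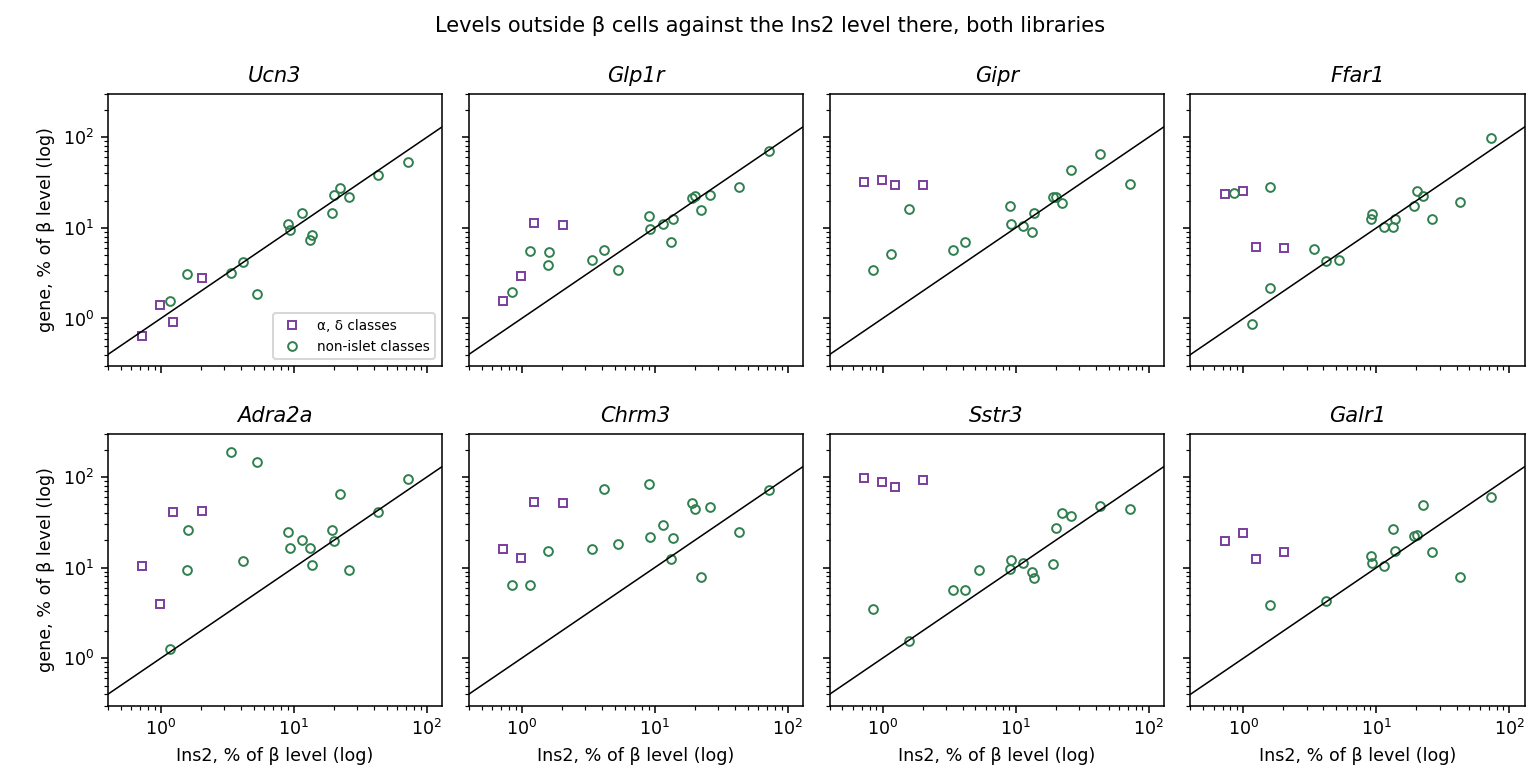
Level of 8 of the genes in each non-β class (percent of the β-cell level of the same library, log axis) against the same percent of Ins2, with a line where both are equal. Gcgr and Sstr2 and groups with 0 UMIs are not drawn. Pericytes for Adra2a (191% against 3.39%, vehicle) and ductal cells for Chrm3 (72.9% against 4.17%) lie far above the line.

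A single β-cell carried several of the genes at once. At 5000 UMIs a cell, cells of cluster 0 held a mean of 2.91 and 2.60 of the 10 genes, 29.4% and 24.6% of them held 4 or more, and 1.55% and 3.11% held none. The mean was 0.503 and 0.585 in the Gcg-led cluster 5, 0.754 and 0.750 in the Sst-led cluster 6 and 0.469 and 0.434 in the Ppy-led cluster 8. No islet cell held more than 7. These numbers count UMIs seen at that depth, and a gene not seen may still be expressed. In vehicle cluster 0 Ucn3 and Glp1r were found together in 57.5% of cells, where the product of their shares was 57.3%, and Gipr with Adra2a in 4.02%, where it was 5.19%. In FAKi cluster 0 pairs lay on both sides of the product. Below it were Gipr and Gcgr (0.741% of cells against 1.79%), Sstr3 and Galr1 (0.741% against 1.57%) and Ffar1 and Galr1 (1.78% against 2.96%). In vehicle cluster 0 these pairs were at 2.78% against 2.36%, 1.855% against 1.88% and 3.4% against 3.395%. Above the product in FAKi were Glp1r and Sstr3 (15.7% against 13.8%) and Ffar1 and Chrm3 (4.74% against 3.79%). These shares carry no interval, and the gaps were not tested.

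**Figure D5:**
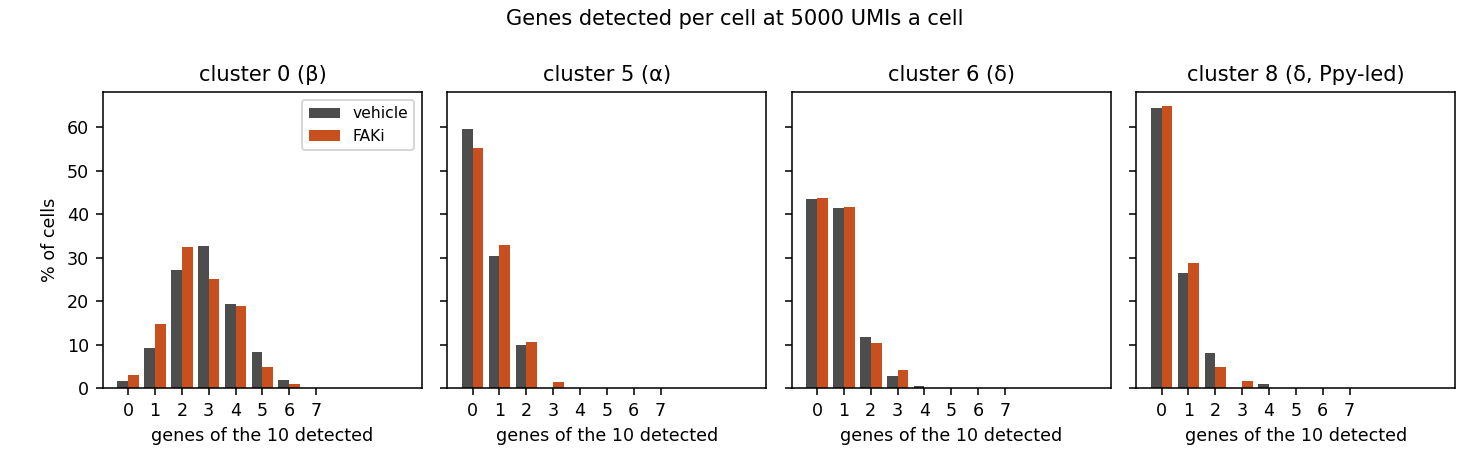
Share of cells (percent) by the number of the 10 genes with a UMI after thinning each cell to 5000 UMIs, in clusters 0, 5, 6 and 8 of both libraries. Cluster 0 has a mean of 2.91 and 2.60 genes a cell and the other clusters lie under 1.

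The other genes of these pathways lay on both sides. Of 38 other islet receptors in the table, 16 had enough UMIs for β over α, with 6 at least 2-fold higher and 6 lower in β-cells, beside 5.95% and 26.6% of all genes. For β over δ 2 were higher and 8 lower of 16, beside 5.08% and 28%. Their median log2 ratios were −0.77 and −1.16, beside −0.59 and −0.63 over all genes. For α over δ 3 were higher and 7 lower of 15, beside 3.89% and 7.15%. In vehicle β-cells Ffar2 was at 21.5, the insulin receptor Insr at 14.03 and Vipr1 at 13.6 CPM. In vehicle α-cells Ffar2 was at 39.8, Gpr119 at 36.7 and Ffar4 at 31.4 CPM, and in vehicle δ-cells Ramp1 was at 70.9, Ffar2 at 58.5 and Ffar4 at 54.2 CPM. The Sst-led cluster 6 of the vehicle library held Ramp1, a partner protein of calcitonin-family receptors (131 CPM), the fatty acid receptors Ffar4 (81.6 CPM) and Ffar2 (79.4 CPM), the purine receptor P2ry1 (33.0 CPM) and the ghrelin receptor Ghsr (30.8 CPM). The Gcg-led cluster 5 held the lipid receptor Gpr119 (40.6 CPM), Ffar2 (34.1 CPM) and the VIP receptor Vipr1 (31.3 CPM).

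Of the 33 genes of signal transduction, 1 was higher and 15 lower of 32 for β over α, beside 5.95% and 26.6% of all genes, and 0 and 14 of 32 for β over δ, beside 5.08% and 28%. These counts are in CPM, the scale on which most genes past the limit were lower in β-cells. Gnas, the stimulatory G protein α subunit on which Glp1r, Gipr and Gcgr act, was at 676 and 612 CPM in β-cells, 4528 and 5397 CPM in α-cells and 2758 and 2481 CPM in δ-cells. Prkar1a, a regulatory subunit of protein kinase A, was at 228, 341 and 344 CPM in vehicle β-, α- and δ-cells, and Gnai2, an inhibitory G protein subunit, at 328, 252.5 and 301 CPM. Of the ligands and transmitter enzymes (15 of 22 in the table), 5 were higher and 6 lower of 12 for β over α and 4 and 5 of 12 for β over δ. The highest of them were Ins2 at 394856.7 CPM in β-cells (Ins1 157499.9 and Iapp 35596.4 CPM), Gcg at 237273.2 CPM in α-cells (Ppy 45503.2 and Pyy 40019.3 CPM), and Ppy at 144939.3 CPM, above Sst at 108919.6 CPM, in the δ class (Pyy 71601.5 CPM).

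Between FAKi and vehicle the shares of all genes past the 1.5-fold limit were 3.31% higher and 6.58% lower in β-cells, 7.23% and 4.94% in α-cells, and 4.08% and 6.85% in δ-cells. Among receptors 1 of 15 was higher in β-cells. This was Cckar, for cholecystokinin, 3.47-fold on 6 and 24 UMIs, of which 0 and 3 were in cluster 0. In α-cells 1 of 13 was past the limit, Ramp2, at 1.89 (0.822 to 4.87) on 8 and 24 UMIs, within counting error. The Gcg-led cluster 5 held 5 and 10 of these Ramp2 UMIs (1.72 and 2.29 CPM). In δ-cells 1 of 16 was higher and 3 were lower. Those were Crhr2, 1.87-fold (1.05 to 3.47) higher, Ffar2 at 0.586 (273 and 190 UMIs), Adora1 at 0.421 (30 and 15 UMIs) and Chrm2. Chrm2 was at 0.655 (0.302 to 1.395) on 18 and 14 UMIs, within counting error. In cluster 6 Chrm2 was inside the limit, at 0.777. Within cluster 6 Ffar2 was at 0.630 (79.4 to 50.1 CPM). In β-cells the signalling regulator Rgs4 was at 0.570 (50.03 to 28.5 CPM) and the potassium channel Kcnj6 at 0.642, with 0 of 29 signalling genes higher. In α-cells Adcy1, an adenylyl cyclase, was at 0.293 (28 and 13 UMIs) and Pde1c, a phosphodiesterase, at 0.593. Plcb3 was at 1.66 there (0.705 to 4.32) on 8 and 21 UMIs, within counting error. In cluster 5 Plcb3 was at 2.41 and 2.52 CPM, on 7 and 11 UMIs. In δ-cells Adcy5 was at 0.421 (0.156 to 1.04) on 16 and 8 UMIs. Plcb3 was at 1.85 there (0.842 to 4.385) on 10 and 22 UMIs, and both ratios were within counting error.

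Among the ligands and enzymes 2 were higher and 3 lower of 12 in β-cells, 0 and 3 of 9 in α-cells, and 1 and 2 of 10 in δ-cells. Cartpt, a neuropeptide gene, was 5.2-fold higher in FAKi β-cells on 9 and 54 UMIs, and 2.94-fold higher (1.13 to 9.0) in cluster 0 on 6 and 19 UMIs. Th, the rate-limiting enzyme of catecholamine synthesis, was 1.77-fold higher on 196 and 400 UMIs. Gal, the galanin gene, was at 0.556 in β-cells (53 and 34 UMIs), with 1 and 8 UMIs in cluster 0. In α-cells Gal was at 0.594 (0.281 to 1.25), within counting error. Ppy was at 0.646 in β-cells and 0.361 in α-cells, and Pyy at 0.628 and 0.447. In cluster 0 Ppy was instead 1.37-fold (1.28 to 1.47) higher in FAKi, and Pyy was at 0.976 (0.881 to 1.08). In the δ class Ins1 was at 0.544 and Ins2 at 0.623. These ratios turned in cluster 6, to 1.45 (1.37 to 1.54) and 1.53 (1.48 to 1.59), and were 0.399 and 0.481 in cluster 8. Npy was at 1.75 in the δ class (0.8725 to 3.69) on 13 and 27 UMIs, within counting error.

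The genes most like each of the 10 were taken by the Pearson correlation of log2(CPM + 1) over the 22 groups of class and library with at least 50 cells, among 10721 genes with at least 500 UMIs. These groups share libraries and β-cell background, so the values describe the pattern only. Ucn3 was nearest to Prss53 (0.984), the transcript B830017H08Rik (0.974) and G6pc2 (0.965), and Glp1r to Fkbp1b (0.946), Plut (0.926) and B830017H08Rik (0.923). Gcgr had Ucn3 itself among its nearest genes (0.867), after B830017H08Rik (0.874) and before Prss53 (0.864). Gipr was nearest to Insrr (0.915), Cdhr1 (0.887) and Tat (0.885), Ffar1 to Maob (0.918), Pacc1 (0.828) and Hepacam2 (0.822), and Galr1 to Pclo (0.885), Cdhr1 (0.872) and Ica1l (0.858). Sstr3 was nearest to Syt13 (0.959), Scg3 (0.957) and Chga (0.956), the last of which encodes a protein of secretory granules in all islet cells. Adra2a was nearest to 1500009L16Rik (0.852), Cabp1 (0.843) and Pde5a (0.840), Chrm3 to Ppp2r2c (0.850), Ccdc162 (0.782) and Hadh (0.773), and Sstr2 to Pik3c2g (0.825), Amt (0.795) and Ephx4 (0.780).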

How the data were processed

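Islet cells of 2 pooled libraries, 1 per group, were profiled by 10x 3′ v3.1 single-cell RNA sequencing. Per the submitters' processing notes, Cell Ranger and Seurat 3.1 were used with mouse build mm10. The authors deposited raw UMI counts per gene and cell, after a filter on genes per cell and on mitochondrial share, together with each cell's class, cluster and percent of mitochondrial counts (7.999 at most). SCRAN normalization and scanorama integration served the authors' Louvain clusters and did not alter the deposited counts. Whether doublets were removed upstream was not given in the sources used here. The 8 samples are 4 sequencing lanes of each library, which the deposited file joins. Cells marked Control were taken as vehicle. Among the genes, 23 were listed under dates in place of symbols.

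For each class or cluster, a gene's UMIs were added up within a library and given as CPM. No test across groups was made. A gene was past the limit at 2-fold between classes or 1.5-fold between FAKi and vehicle, with at least 20 UMIs in both groups together, and the shares of all genes used the same rule. For shares of cells each cell was thinned to 5000 UMIs, which left out 57 and 110 β-, 21 and 39 α-, 51 and 44 δ- and 226 and 149 endothelial cells. Unthinned, 91.4% and 90.5% of β-cells held a Ucn3 UMI and 3.31% and 2.60% of endothelial cells. Scrublet called 68 and 57 cells as doublets, which were kept.

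The members and gene lists were chosen with earlier results of these data known. All 10 members were named in every class. From each list the text names the 3 genes with the highest CPM in vehicle β-, α- and δ-cells and those past the limit between FAKi and vehicle, and, chosen after their values were seen, other receptors of clusters 0, 5 and 6. The 3 most similar genes were named for members with at least 100 UMIs. Alternatives were CPM without the 20 most abundant genes, UMIs per cell, means over cells, a minimum of 50 UMIs, background subtraction, thinning to 2000 UMIs, removal of called doublets, and cell filters at 1000 detected genes or 5% mitochondrial counts. Restriction to clusters 0, 5 and 6 and grouping of cells by leading hormone were added after seeing the data. Versions were Python 3.11.15, scanpy 1.11.5, pandas 2.3.3, numpy 2.4.6, scipy 1.17.1 and matplotlib 3.10.9, and the scripts were tested on simulated data. Positions are from GENCODE vM21 (GRCm38), and promoters of 8 of the 10 genes from RefSeq (GRCm38.p6). Galr1 was not looked up in either. Protein sequences were not analysed here.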

Additional observations from a re-analysis of the deposited data

Results flagged for a closer look

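The ratio of FAKi to vehicle for Ucn3 had opposite signs in the islet classes. Its log2 value was −0.20 in β-cells (8212 UMIs in vehicle and 8260 in FAKi), 0.92 in α-cells (6 and 18 UMIs) and −1.79 in δ-cells (32 and 11 UMIs). With 1 library a group, the difference between classes was not tested. Ins2 went from 2874 to 3996 CPM in the α class and from 8020 to 4999 CPM in the δ class, and the 7 β-cell markers were higher in FAKi for 5 in α-cells and lower for 6 in δ-cells. The δ fall lay in the Ppy-led cluster 8, where Ins2 went from 13870.0 to 6675 CPM and Ucn3 from 29 to 6 UMIs. In the Sst-led cluster 6 Ins2 went from 2024 to 3101 CPM and Ucn3 from 3 to 5 UMIs. Their part in the Ucn3 values was not tested.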

How the results depend on the processing

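No paired analysis was possible because each group has a single pooled library, whose lanes are repeat runs and not replicates, and for the same reason no replicate could be left out. The 507 single-gene ratios recomputed under the alternatives held 0 past the limit that changed direction, and 88 moved by more than their counting interval. The number of members at least 1.5-fold higher in FAKi α-cells was 2 (Ucn3 and Sstr2), and became 1 as a mean over cells (Ucn3), 0 in cells under 5% mitochondrial counts, 0 after background subtraction, 1 with at least 50 UMIs or in clusters 0, 5 and 6 only (Sstr2), and 1 by leading hormone (Glp1r, at 2.36 on 5 and 21 UMIs). The number lower in FAKi α-cells and the number lower in FAKi δ-cells were 1 each, and became 0 with at least 50 UMIs, in those clusters only, or by leading hormone. The number higher in FAKi δ-cells was 0 and became 1 (Ffar1) after background subtraction, and the 1 lower there was then Galr1 in place of Ucn3. The number lower in α- than in δ-cells was 4 and became 2 in those clusters only or by leading hormone. After background subtraction the genes higher and lower in FAKi became 1708 and 1175 in β-cells, 3099 and 973 in α-cells and 2750 and 1164 in δ-cells, from 443 and 881, 836 and 571, and 481 and 807. The most ratios moved in UMIs per cell (21 of 54), against 16 of 44 in clusters 0, 5 and 6 only and 15 of 46 by leading hormone. Some vehicle ratios grew when mixed clusters were left out, but on 1 to 5 UMIs in the lower group. In clusters 0, 5 and 6 only, these were Glp1r and Adra2a β over α (2 UMIs each in cluster 5) and Ucn3 and Ffar1 β over δ (3 UMIs each in cluster 6). The Glp1r ratio in β-cells lay between 0.685 and 0.778 under all alternatives. Of the 30 nearest genes by correlation, 17 were shared under Spearman ranks and 10 with vehicle groups only. Depth limits the α- and δ-cell values, where the members had between 2 and 226 UMIs.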
